A study of Rattus norvegicus with 5 samples.

Results

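The insulin-like growth factor (IGF) family was followed here as 10 genes: the ligands Igf1 and Igf2, the receptors Igf1r and Igf2r, and the binding proteins Igfbp1, Igfbp2, Igfbp3, Igfbp4, Igfbp5 and Igfbp6. A probe set, the group of short array probes that together report 1 transcript, was taken as a member when its single gene symbol was one of these names. That gave 24 of the 8799 probe sets on the array, for 9 of the 10 genes, among 4736 genes named this way on the array. The transcript level of Igfbp4 was not analysed here. Total RNA of rat hippocampus was measured on 5 single-colour arrays, all labelled P5. Offspring exposed to alcohol as fetuses gave 2 arrays, an isocaloric diet gave 1 array, and a control diet gave 2 arrays. An isocaloric diet is a feeding control whose calories are matched to those of an alcohol diet. No label gives the strain, the sex, the alcohol dose or whether animals were pooled. The labels do not say that the arrays of a group came from separate animals, so p-values measure only the spread between these samples, which may be technical.

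Igf1 and Igf2 are secreted peptides related to insulin, and both signal through Igf1r, a receptor tyrosine kinase whose best known outputs are cell growth, survival and division. Igf2r, also called the cation-independent mannose 6-phosphate receptor, takes Igf2 into the cell for breakdown and does not pass on a growth signal of that kind. The binding proteins hold the ligands outside cells, where they can lengthen their life or keep them off Igf1r. Igf2 is imprinted, with the paternal copy active in most tissues, and in the rodent brain its best known sites of transcription are the choroid plexus and the meninges.

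Values are the deposited intensities, on a linear scale. Differences are differences of log2(intensity + 10.6). The offset of 10.6 is the 20th percentile of all intensities other than controls, so the difference of a dim probe set is understated. Differences of at least 1.5-fold were counted on this scale, not on the plain intensities. Only probe sets with a mean log2 value of at least 5.46 over the 5 arrays were tested, which kept 5244 probe sets in all and 18 of the 24 members. The 2% trimmed mean of intensity differed by a ratio of 1.0002 at most between arrays, and the medians lay between 49.0 and 55.7. Of the neuron markers 17 of 22 were measured, and their summed intensity lay between 9158 and 11003 on every array. Slc17a7, the glutamate transporter of excitatory neurons, was under the offset on all 5 arrays. No other tissue was measured beside them, so these values cannot test the hippocampus label. No probe set of the 5244 passed an adjusted p of 0.05 in any of the 3 comparisons (limma with Benjamini-Hochberg adjustment, 0% called), while 294 had an unadjusted p under 0.05 for fetal alcohol against control diet, 221 for fetal alcohol against isocaloric diet and 357 for isocaloric against control diet. A lower level in such tissue RNA cannot be split into fewer cells of a type and less RNA per cell.

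Igf2 carried the widest spread of results in the family, with 6 probe sets of which 4 were tested. The promoter windows of the gene are printed here because the probe sets of this gene differed in their pattern over the arrays, and Igf2 is known to be transcribed from several promoters. They come from RefSeq on build GRCr8, are the 250 bases before 2 annotated starts on the minus strand, and are written 5′ to 3′ with capitals marking GGGCGG, the core of a GC box.
Igf2, chr1:207250476-207250725: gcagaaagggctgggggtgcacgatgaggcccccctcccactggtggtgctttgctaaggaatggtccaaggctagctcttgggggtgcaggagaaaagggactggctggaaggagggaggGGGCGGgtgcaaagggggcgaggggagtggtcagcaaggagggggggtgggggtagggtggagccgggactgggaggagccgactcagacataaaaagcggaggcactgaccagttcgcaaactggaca
Igf2, chr1:207253981-207254230: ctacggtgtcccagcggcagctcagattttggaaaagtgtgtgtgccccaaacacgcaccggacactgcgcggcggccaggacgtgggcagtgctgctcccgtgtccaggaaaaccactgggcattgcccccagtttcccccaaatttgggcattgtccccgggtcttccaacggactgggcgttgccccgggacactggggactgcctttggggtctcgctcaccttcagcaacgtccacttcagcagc
The window at chr1:207250476-207250725 held 1 GGGCGG and 63.6% G or C, and the window at chr1:207253981-207254230 held none and 62.4% G or C. Both strands were searched for GGGCGG, whose reverse complement is CCGCCC. Of 33469 rat windows of this length 30.5% held the motif, and their median share of G or C was 51.2%. Which start each probe set reports was not analysed here.

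The brightest Igf2 probe set, X17012mRNA_s_at, had 582 and 308 in the fetal alcohol pair, 593 with the isocaloric diet, and 592 and 861 in the control diet pair. Both fetal alcohol arrays lay below both control diet arrays, but fetal alcohol array 1 lay close to control diet array 1, and the isocaloric array stood within the control diet pair. The fetal alcohol minus control diet difference was -0.74 ± 0.34 on the log2 scale (SE, n = 2 and 2 arrays, limma adjusted p = 0.909), and it lay between -1.18 and -0.29 when each array was left out in turn. The isocaloric minus control diet difference at this probe set was -0.26 ± 0.41 (SE, n = 1 and 2), and the fetal alcohol minus isocaloric difference was -0.47 ± 0.41.

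The Igf2 probe set E00988mRNA_s_at differed most. It had 23.1 and 14.7 with fetal alcohol, 27.0 with the isocaloric diet, and 134 and 179 with control diet. The 3 arrays without control diet were all low and the 2 control diet arrays were both high, with no overlap. Its mean was 18.9 ± 5.94 with fetal alcohol and 157 ± 32.0 with control diet (SD, n = 2 each). The fetal alcohol minus control diet difference was -2.50 ± 0.27 (SE, 95% confidence interval -3.11 to -1.89). Its unadjusted p of 1.04e-05 was the smallest of all 5244 probe sets, and its limma adjusted p of 0.0547 missed the threshold of 0.05. The filter level equals an intensity of 33.4, and its fetal alcohol and isocaloric values were all below that. Its place among the tested probe sets therefore came through the control diet arrays, where it was high.

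The isocaloric minus control diet difference at E00988mRNA_s_at was -2.14 ± 0.33 (SE, n = 1 and 2), with an unadjusted p of 0.000148, again the smallest of all 5244, and a limma adjusted p of 0.270. These differences share their control diet arrays, so they are not independent of each other. Between fetal alcohol and isocaloric diet the difference was -0.36 ± 0.33 (SE, n = 2 and 1). The call at this probe set depended on the processing: the fetal alcohol minus control diet difference passed after quantile normalization (-2.47, limma adjusted p = 0.0198), after scaling to equal medians (-2.46, 0.000922) and with an offset of 50 (-1.58, 0.0399). Without fetal alcohol array 1 it was -2.71 with a limma adjusted p of 0.00353, and without fetal alcohol array 2 it was -2.30 with 0.0163. Leaving out control diet array 1 gave a limma adjusted p of 0.307, leaving out control diet array 2 gave 0.247, and testing with no intensity filter gave 0.642.

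The other Igf2 probe sets did not share that pattern. M17960_g_at had 123 and 121 in the fetal alcohol pair, 123 with the isocaloric diet, and 123 and 144 in the control diet pair, nearly level on 4 of the 5 arrays. Its fetal alcohol minus control diet difference was -0.11 ± 0.23 (SE, limma adjusted p = 0.994), with a 95% confidence interval of -0.63 to 0.40. M17960_at had 18.1 and 40.5 with fetal alcohol, 46.9 with the isocaloric diet, and 44.3 and 44.4 with control diet. Here fetal alcohol array 1 alone was low, and the difference of -0.52 ± 0.31 (SE, limma adjusted p = 0.946) was -0.10 without that array and -0.94 without fetal alcohol array 2. X16703_r_at, with 21.8 and 29.0 in the fetal alcohol pair, 23.1 with the isocaloric diet, and 28.2 and 17.5 in the control diet pair, was too dim to be tested. X16703_i_at was under the offset of 10.6 on all 5 arrays.

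Agreement between probe sets of Igf2 was measured as the root mean square difference between their log2 profiles over the 5 arrays, each centred on its own mean. Among the 4 tested probe sets it lay between 0.90 and 1.13 for the pairs with E00988mRNA_s_at, and between 0.37 and 0.59 for the pairs without it. This distance depends on the log2 range of each profile. The range was 2.91 for E00988mRNA_s_at, 1.45 for X17012mRNA_s_at, 1.00 for M17960_at and 0.23 for M17960_g_at. By the same measure the tested probe sets nearest to X17012mRNA_s_at were those of Aldh1a2, a retinoic acid synthesising enzyme, at 0.088, Col1a2, a fibrillar collagen chain, at 0.093, and Gstm2, a glutathione transferase, at 0.101. Aldh1a2 had 75.1 and 37.7 with fetal alcohol, 72.5 with the isocaloric diet, and 85.2 and 131 with control diet, the same order of arrays apart from the isocaloric one. No candidate was as near to E00988mRNA_s_at: Sec31a, a coat protein of vesicles that leave the endoplasmic reticulum, stood at 0.43, Atn1, a transcriptional corepressor, at 0.49, and Mrpl38, a mitochondrial ribosomal protein, at 0.55. Sec31a had 28.7 and 27.4 in the fetal alcohol pair, 24.4 with the isocaloric diet, and 171 and 109 in the control diet pair.

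**Figure D1:**
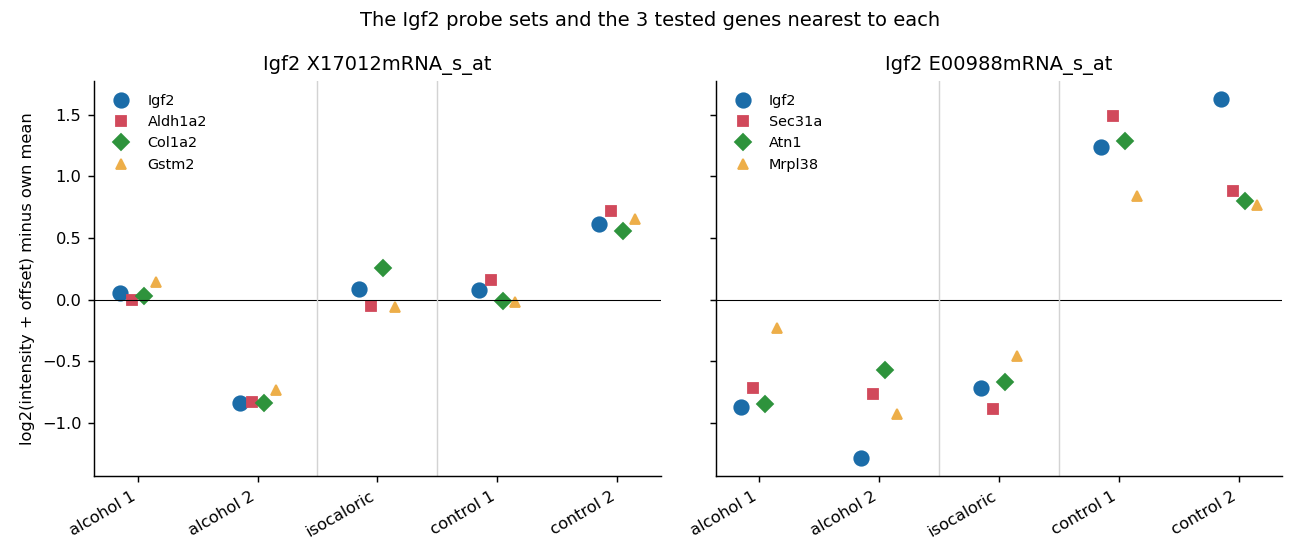
Each point is log2(intensity + offset) of a probe set on 1 array, minus the probe set's mean over the 5 arrays, for Igf2 X17012mRNA_s_at (left) and Igf2 E00988mRNA_s_at (right) with the 3 tested genes nearest to each. On the left the profiles lie within 0.088 to 0.101 (root mean square) of Igf2 and fetal alcohol array 2 is lowest, and on the right both control diet arrays stand above the other 3 arrays, with distances of 0.43 to 0.55.

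Markers of the tissues best known for Igf2 were set beside it, and none passed an adjusted p of 0.05. The summed intensity of the 24 measured meninges and connective tissue markers (of 33 listed, none under the offset on every array) was 8835 and 5703 with fetal alcohol, 6892 with the isocaloric diet, and 9392 and 10726 with control diet. Of the 23 tested, 21 had a negative fetal alcohol minus control diet difference, against 47.6% of 3174 genes, with a median of -0.39, against 0.01. Fetal alcohol array 1 lay above the isocaloric array in this sum. The fetal alcohol minus isocaloric difference was negative for 17 of the 23, against 51.3% of the 3174 genes. Its median was -0.23, against -0.008. The largest fetal alcohol minus control diet difference was that of the collagen gene Col3a1, at -1.14 ± 0.54 (SE, n = 2 and 2). Of the choroid plexus markers 10 of 20 were measured, and their sum was 1492 and 526 in the fetal alcohol pair, 6343 with the isocaloric diet, and 6010 and 5642 in the control diet pair. Ttr, the thyroid hormone carrier that marks choroid plexus epithelium, had 1004 and 69.2 with fetal alcohol, 5391 with the isocaloric diet, and 5297 and 4886 with control diet. It made up most of the sum on every array except fetal alcohol array 2. Of the 7 choroid plexus markers tested, 5 were negative for fetal alcohol minus control diet, against 47.6% of the 3174 genes. The largest differences after Ttr were Aqp1 at -1.21 ± 0.24 and Sostdc1 at -1.14 ± 0.27 (SE). The 2 positive markers were Prlr at 0.04 and Cp at 0.12. For fetal alcohol minus isocaloric diet 4 were negative and 3 positive, against 51.3% negative. The negative differences lay between -4.25 and -1.31 and the positive ones between 0.01 and 0.14 (n = 2 and 1 arrays). The median over the 7 was -1.31, against -0.008 over the 3174 genes. The channel gene Kcnj13 was under the offset on all 5. X17012mRNA_s_at, E00988mRNA_s_at and both marker sums were lowest on fetal alcohol array 2. E00988mRNA_s_at was also low on the isocaloric array, on which the choroid plexus sum was the highest of the 5. The part of either marker list in the Igf2 values was not tested. The sum of the blood vessel and mural cell markers (13 of 18 measured, Des under the offset on every array) was 874 and 909 with fetal alcohol, 1105 with the isocaloric diet, and 1006 and 1237 with control diet, and that of the astrocyte and radial glia markers (11 of 13 measured) lay between 6661 and 7469 on all 5 arrays.

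Igf1, the other ligand, was near level across the groups at its 3 tested probe sets. The brightest, X06107_i_at, had 74.1 and 81.1 in the fetal alcohol pair, 74.0 with the isocaloric diet, and 85.4 and 61.9 in the control diet pair. The fetal alcohol arrays lay inside the control diet pair, and the difference was 0.08 ± 0.24 (SE, 95% confidence interval -0.48 to 0.64, limma adjusted p = 0.997). M15481_g_at had 37.9 and 55.6 with fetal alcohol, 47.4 with the isocaloric diet, and 46.1 and 51.7 with control diet, with a difference of -0.07 ± 0.26 (SE). X06107_r_at had 47.0 and 38.2 in the fetal alcohol pair, 36.2 with the isocaloric diet, and 42.5 and 40.4 in the control diet pair, with a difference of 0.03 ± 0.24 (SE). Fetal alcohol and control diet overlapped at all 3, and at X06107_r_at the isocaloric array lay below both pairs. Of the 2 untested Igf1 probe sets, D00698_s_at lay between 1.18 and 13.0 over the 5 arrays. The other, M15481_at, had 54.7 and 20.8 with fetal alcohol, 36.7 with the isocaloric diet, and 14.5 and 24.7 with control diet. Its fetal alcohol minus control diet difference was 0.60, while fetal alcohol array 2 lay inside the control diet pair.

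**Figure D2:**
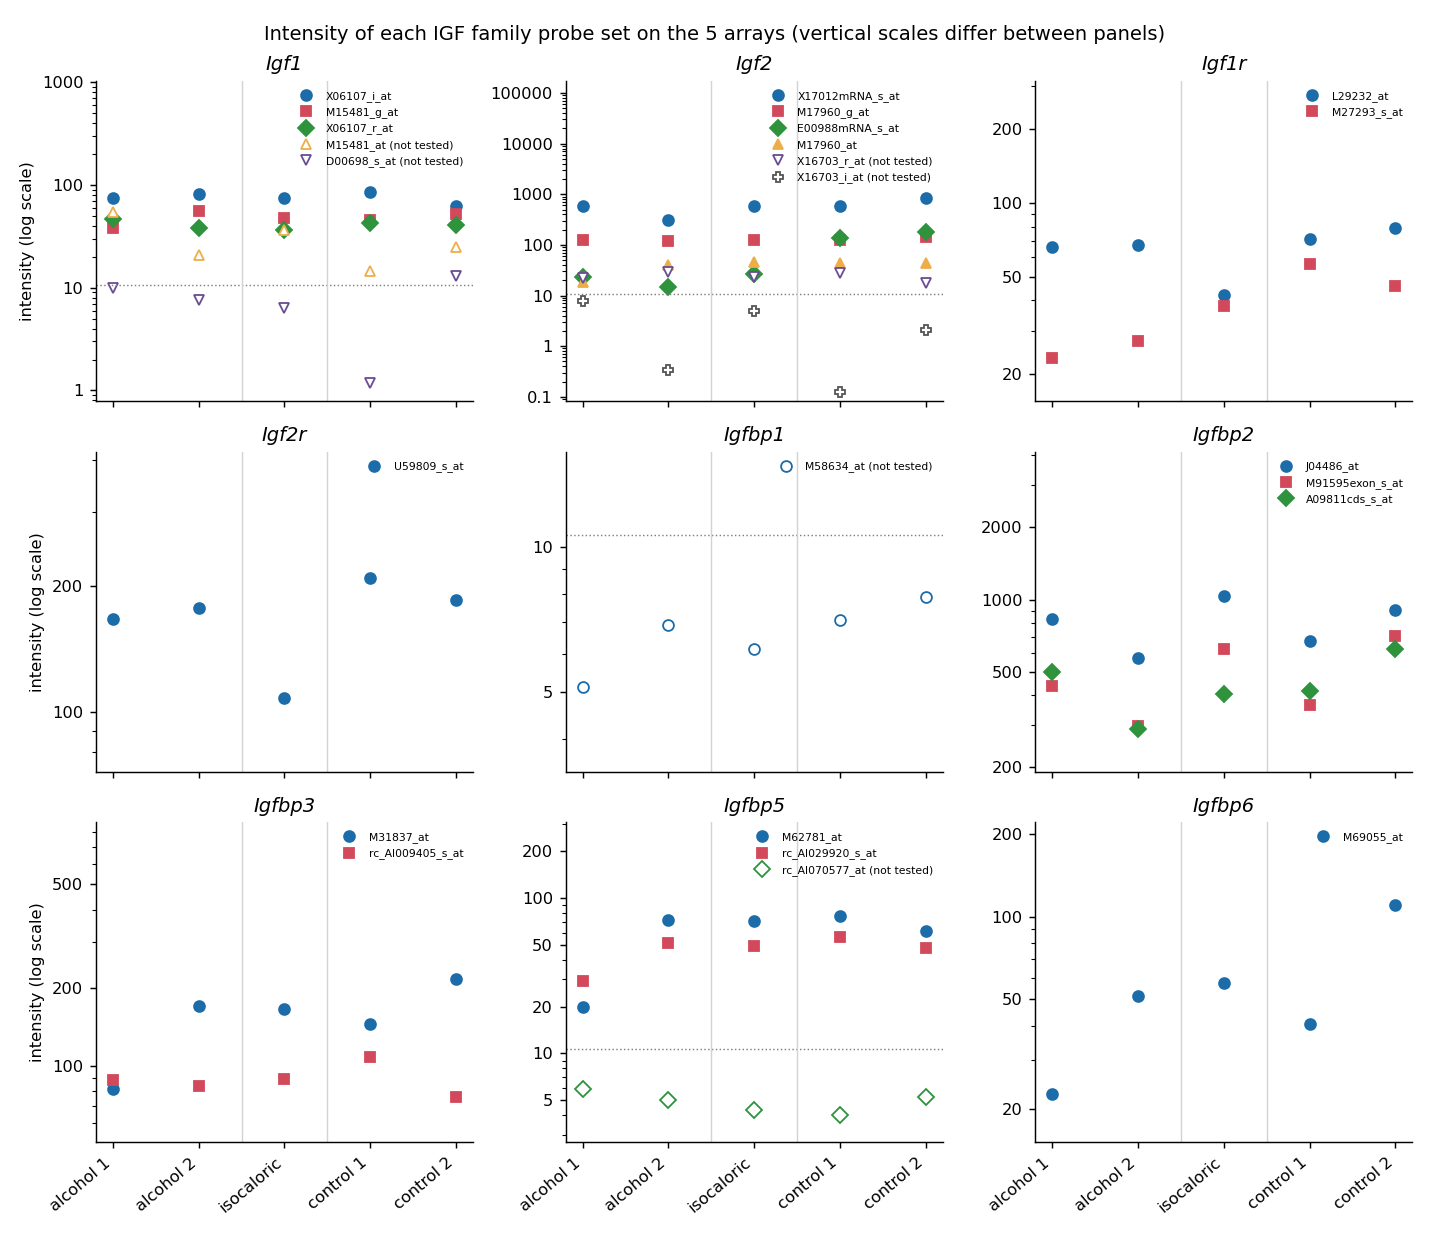
Intensity (log scale) of all 24 IGF family probe sets, 1 panel per gene, by array (2 fetal alcohol, 1 isocaloric, 2 control diet), with open symbols for probe sets that were not tested and a dotted line at the offset of 10.6 where it falls in the panel. Igf2 E00988mRNA_s_at (green diamonds) is high only on the control diet arrays, at 134 and 179, and Igf2r is lowest on the isocaloric array, at 108.

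The receptor Igf1r had 2 tested probe sets, and they differed in which groups they set apart. L29232_at had 66.1 and 67.0 with fetal alcohol, 42.2 with the isocaloric diet, and 71.1 and 78.8 with control diet. Fetal alcohol lay just below control diet without overlap, and the isocaloric array was the lowest of the 5. The fetal alcohol minus control diet difference was -0.15 ± 0.22 (SE, limma adjusted p = 0.980), the isocaloric minus control diet difference was -0.70 ± 0.28 (unadjusted p 0.0343, limma adjusted p = 0.680), and the fetal alcohol minus isocaloric difference was 0.55 ± 0.28.

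At M27293_s_at, Igf1r had 23.2 and 27.3 in the fetal alcohol pair, 38.0 with the isocaloric diet, and 56.2 and 45.7 in the control diet pair. The 3 groups stood in that order without overlap. The fetal alcohol minus control diet difference was -0.78 ± 0.25 (SE, unadjusted p 0.0127, limma adjusted p = 0.682), and the isocaloric minus control diet difference was -0.34 ± 0.30. This is also one of the dimmest tested members: its mean log2 value of 5.56 and that of Igf2 M17960_at, 5.59, were the closest to the filter from above, while Igf1 M15481_at at 5.27 and Igf2 X16703_r_at at 5.10 were the closest from below. As the mean over both probe sets, the Igf1r difference between fetal alcohol and control diet was -0.46, against -0.15 at the brighter one.

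Igf2r, the clearance receptor, had the single probe set U59809_s_at. It had 167 and 177 with fetal alcohol, 108 with the isocaloric diet, and 209 and 185 with control diet. The isocaloric array was the lowest, and fetal alcohol lay below control diet without overlap. The isocaloric minus control diet difference was -0.81 ± 0.28 (SE, n = 1 and 2, unadjusted p 0.0192, limma adjusted p = 0.631), the fetal alcohol minus control diet difference was -0.18 ± 0.23 (limma adjusted p = 0.965), and the fetal alcohol minus isocaloric difference was 0.63 ± 0.28 (unadjusted p 0.0540). The single isocaloric array has no replicate check, and its sum of neuron markers, 9158, was also the lowest of the 5; the part of those markers in the receptor values was not tested.

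Of the binding proteins, Igfbp2 is the one best known from the developing brain, and its gene lies next to Igfbp5 on rat chromosome 9 in the RefSeq gene table, on the opposite strand. Their promoter windows are printed because the genes are neighbours whose values differed in the arrays that were low. They are the 250 bases before each annotated start on GRCr8, from RefSeq, plus strand for Igfbp2 and minus strand for Igfbp5, with GGGCGG in capitals.
Igfbp2, chr9:81864561-81864810: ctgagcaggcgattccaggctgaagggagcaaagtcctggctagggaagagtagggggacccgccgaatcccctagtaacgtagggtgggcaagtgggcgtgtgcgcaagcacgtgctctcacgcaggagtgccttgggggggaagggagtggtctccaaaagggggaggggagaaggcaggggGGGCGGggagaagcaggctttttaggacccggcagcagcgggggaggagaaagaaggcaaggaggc
Igfbp5, chr9:81914188-81914437: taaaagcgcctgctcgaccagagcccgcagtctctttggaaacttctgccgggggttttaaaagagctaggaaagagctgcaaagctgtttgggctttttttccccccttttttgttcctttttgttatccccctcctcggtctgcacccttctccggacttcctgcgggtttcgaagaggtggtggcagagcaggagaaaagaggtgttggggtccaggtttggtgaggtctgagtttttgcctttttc
The Igfbp2 window held 1 GGGCGG and 64.0% G or C, and the Igfbp5 window held no GGGCGG and 51.6% G or C. Over the whole family 11 windows were found for the 10 genes, of which 4 held GGGCGG. The motif TATAAA, searched on both strands with its reverse complement TTTATA, was found in 1 of the 11, that of Igfbp4, against 12.9% of the 33469 windows.

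The brightest Igfbp2 probe set, J04486_at, had 832 and 573 in the fetal alcohol pair, 1033 with the isocaloric diet, and 670 and 909 in the control diet pair. The fetal alcohol and control diet arrays overlapped and the isocaloric array was the highest. Its fetal alcohol minus control diet difference was -0.17 ± 0.27 (SE, limma adjusted p = 0.980), and it lay between -0.44 and 0.09 with each array left out in turn. M91595exon_s_at had 435 and 299 with fetal alcohol, 621 with the isocaloric diet, and 365 and 708 with control diet, and A09811cds_s_at had 500 and 288 in the fetal alcohol pair, 406 with the isocaloric diet, and 418 and 622 in the control diet pair. Their differences were -0.48 ± 0.34 and -0.42 ± 0.32 (SE). All 3 Igfbp2 probe sets had fetal alcohol array 2 below fetal alcohol array 1 and control diet array 1 below control diet array 2, and none separated the groups. In rat brain the choroid plexus and meninges are among the known sites of Igfbp2. Their marker sums, given above with Igf2, were also lower on fetal alcohol array 2 than on array 1. On fetal alcohol array 1 the choroid plexus sum was 1492, against 6010 and 5642 in the control diet pair. J04486_at had 832 on that array, against 670 and 909. The part of these markers in the Igfbp2 values was not tested.

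Igfbp5, a binding protein that also attaches to extracellular matrix, was low on the other fetal alcohol array. M62781_at had 19.96 and 71.8 with fetal alcohol, 71.3 with the isocaloric diet, and 76.7 and 61.0 with control diet. Fetal alcohol array 1 alone was low, and the rest lay together. The difference of -0.66 ± 0.42 (SE, limma adjusted p = 0.961) was 0.06 without that array and -1.37 without fetal alcohol array 2. The second tested probe set, rc_AI029920_s_at, had 29.2 and 51.5 in the fetal alcohol pair, 49.2 with the isocaloric diet, and 55.9 and 47.9 in the control diet pair, again with fetal alcohol array 1 alone low, and its difference was -0.33 ± 0.28 (SE). The third, rc_AI070577_at, was under the offset on all 5 arrays.

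Igfbp3, the main carrier of IGFs in blood, had 2 tested probe sets that differed in spread. M31837_at had 81.7 and 170 with fetal alcohol, 166 with the isocaloric diet, and 145 and 217 with control diet, so that fetal alcohol array 1 was the lowest and the groups overlapped. Its difference between fetal alcohol and control diet was -0.55 ± 0.35 (SE, limma adjusted p = 0.961), which was -0.06 without fetal alcohol array 1 and -1.03 without fetal alcohol array 2. At rc_AI009405_s_at, Igfbp3 had 87.9 and 83.4 in the fetal alcohol pair, 89.2 with the isocaloric diet, and 108 and 76.0 in the control diet pair, a difference of -0.08 ± 0.25 (SE). The fetal alcohol and isocaloric arrays all lay inside the control diet pair there.

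Igfbp6, a binding protein that prefers Igf2 over Igf1, had 22.6 and 51.5 with fetal alcohol, 57.4 with the isocaloric diet, and 40.6 and 110 with control diet at its single probe set M69055_at. Both pairs were wide, and they overlapped. Its difference of -0.79 ± 0.44 (SE, limma adjusted p = 0.922) lay between -1.41 and -0.17 with each array left out in turn. Igfbp1, a binding protein made mainly in liver, was under the offset on all 5 arrays at M58634_at, with 5.13 and 6.90 in the fetal alcohol pair, 6.16 with the isocaloric diet, and 7.07 and 7.89 in the control diet pair, and was not tested.

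Counted over the tested members of the family, the differences between fetal alcohol and control diet lay mostly below 0 without passing the test. None of the 18 tested probe sets passed an adjusted p of 0.05, against 0% of the 5244. An unadjusted p under 0.05 was reached by 2 of the 18 on the lower side, against 3.95% of all probe sets, and by 0 on the higher side, against 1.66%. With the brightest probe set standing for a gene, 0 of 8 genes reached it on the lower side, against 3.21% of 3174. The 2 probe sets were Igf2 E00988mRNA_s_at and Igf1r M27293_s_at. At both, the fetal alcohol values were under the filter level of 33.4, so they were tested through the arrays where they were higher. The member count rose with either fetal alcohol array left out, and so did the count over all probe sets. With either control diet array left out the count over all probe sets fell, and that of members did not. The difference was negative at 16 of 18 probe sets, against 49.5% of all probe sets, and, taking the brightest probe set of each gene, at 7 of 8 genes, against 47.6% of 3174 genes. The untested, dim probe sets did not share this direction in most cases. With them included, 1 of 5 probe sets of Igf1, 4 of 6 of Igf2, 2 of 3 of Igfbp5 and the 1 of Igfbp1 were negative. The median over the 18 was -0.37, against 0.005 over all 5244. Both fetal alcohol arrays lay below both control diet arrays at 6 of the 18, against 17.7% of all probe sets: 3 of Igf2, both of Igf1r and the 1 of Igf2r. No member had both fetal alcohol arrays above both control diet arrays, against 16.8%. On the scale with the offset, 5 of the 18 were at least 1.5-fold lower, against 4.58% of all probe sets. None was at least 1.5-fold higher, against 1.79%. Without overlap 3 of those 5 remained on the lower side, Igf2 X17012mRNA_s_at, Igf2 E00988mRNA_s_at and Igf1r M27293_s_at, against 3.91%. Probe sets of a gene share their transcript and all members share the same 5 arrays, so these counts are descriptions. Fetal alcohol array 1 was the lower of its pair at 10 of the 18 and array 2 at 8.

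**Figure D3:**
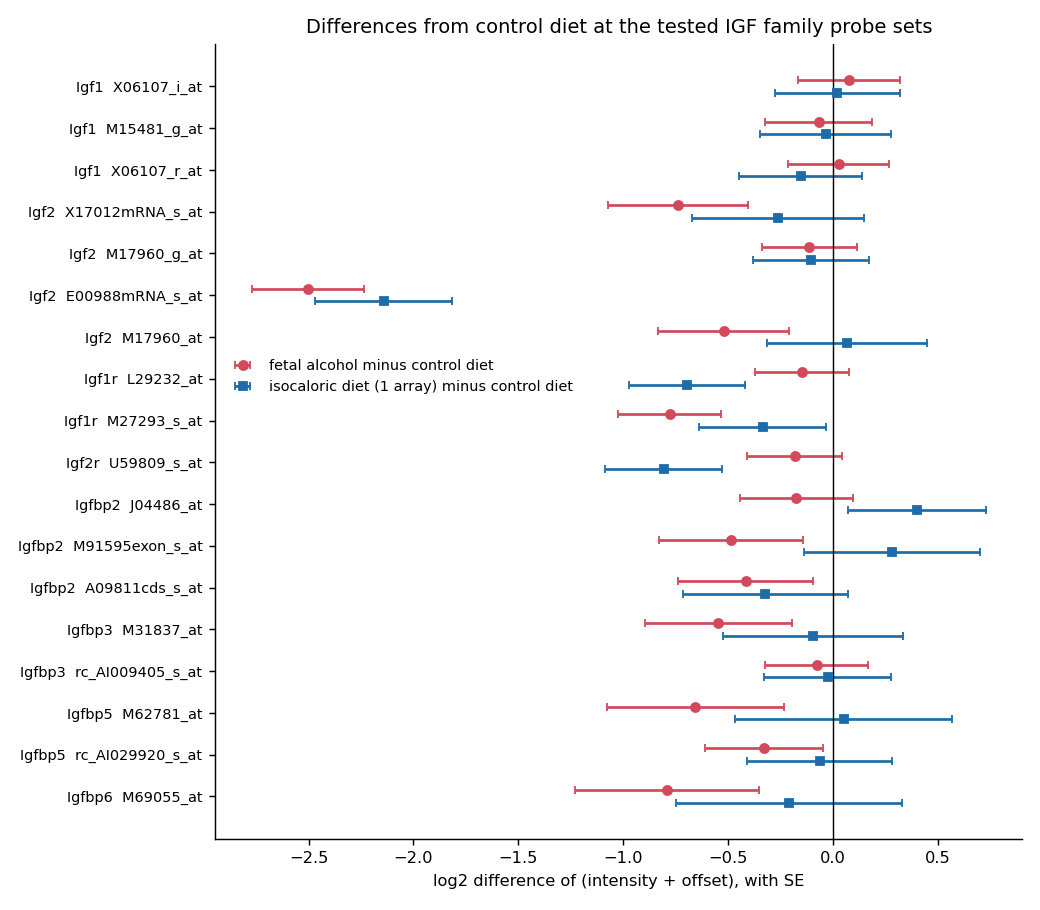
Differences of log2(intensity + offset) at the 18 tested IGF family probe sets, fetal alcohol minus control diet (red circles, n = 2 and 2 arrays) and isocaloric minus control diet (blue squares, n = 1 and 2 arrays), with bars for the SE. Igf2 E00988mRNA_s_at stands apart at -2.50 and -2.14, and 16 of the 18 red circles lie below 0.

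Set against the isocaloric array, fetal alcohol gave no member an unadjusted p under 0.05, against 1.54% of all probe sets on the lower and 2.67% on the higher side. The member count rose with either fetal alcohol array left out, and so did the count over all probe sets. With either control diet array left out the member count was unchanged, while that over all probe sets fell. The difference was negative at 14 of 18 members, against 50.3%, with a median of -0.31, and positive at 4, against 49.7%. The isocaloric array lay above both fetal alcohol arrays at 8 members, against 28.4%, and below both at 4, against 31.5%. Those 4 were 2 probe sets of Igf1, Igf1r L29232_at and Igf2r. On the scale with the offset, Igf2r alone was at least 1.5-fold higher with fetal alcohol, against 5.13% of all probe sets. At least 1.5-fold lower with fetal alcohol were 3 members, against 4.14%: Igfbp2 M91595exon_s_at, Igfbp5 M62781_at and Igf2 M17960_at.

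The comparison of isocaloric with control diet, which asks what a matched diet without alcohol does, set the receptors and 1 Igf2 probe set lowest. An unadjusted p under 0.05 was reached by 3 of 18 members on the lower side, against 5.43% of all probe sets, and by 0 on the higher side, against 1.37%. Fewer members, and fewer of all probe sets, reached it with either control diet array left out. With either fetal alcohol array left out the member count was unchanged, while that over all probe sets rose. The 3 members of the full fit were Igf2 E00988mRNA_s_at, Igf2r U59809_s_at and Igf1r L29232_at. The same 3 were the members at least 1.5-fold lower, against 8.45%. None was at least 1.5-fold higher, against 4.12%. The difference was negative at 13 of 18, against 48.6%, with a median of -0.10 over the members and 0.016 over all probe sets. The isocaloric array lay below both control diet arrays at 7 members, against 37.5%, and above both at 2, Igfbp2 J04486_at and Igf2 M17960_at, against 38.3%.

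Genes around the family were counted from 3 lists, with the brightest probe set standing for a gene. Over the 3174 genes tested this way, the fetal alcohol minus control diet difference had a median of 0.01 and was negative for 47.6%, and 3.21% had an unadjusted p under 0.05 on the lower and 1.51% on the higher side. Of the IGF and insulin receptors, relatives and carriers, 10 of 14 were measured and 8 tested. None had an unadjusted p under 0.05, 6 were negative, and the median was -0.11. H19, the imprinted RNA gene next to Igf2, had 33.6 and 58.5 with fetal alcohol, 74.5 with the isocaloric diet, and 63.7 and 78.4 with control diet, so both fetal alcohol arrays lay below the rest. Its difference from control diet was -0.56 ± 0.28 (SE, limma adjusted p = 0.911). Ins1, 1 of the 2 rat insulin genes, was -0.65 ± 0.39, and Ins2, the other, 0.26 ± 0.24 (SE). The protease Mmp2 was -0.31 ± 0.31, and the insulin receptor-related receptor Insrr -0.11 ± 0.24 (SE).

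The signalling cascade below the receptors showed no common direction. Of 51 listed genes 35 were measured and 28 tested, with 15 positive and 13 negative differences between fetal alcohol and control diet and a median of 0.01. Of these, 2 had an unadjusted p under 0.05, both lower. Irs2, an adaptor that Igf1r and the insulin receptor phosphorylate, had 45.0 and 78.7 in the fetal alcohol pair, 49.5 with the isocaloric diet, and 119 and 94.6 in the control diet pair. The control diet arrays were the highest, and the differences from them were -0.73 ± 0.29 for fetal alcohol (SE, limma adjusted p = 0.820) and -0.96 ± 0.35 for the isocaloric diet (limma adjusted p = 0.631).

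Pik3r2, a regulatory subunit of phosphatidylinositol 3-kinase, had 98.8 and 90.4 with fetal alcohol, 124 with the isocaloric diet, and 151 and 170 with control diet. The 3 groups did not overlap, and the fetal alcohol minus control diet difference was -0.70 ± 0.23 (SE, limma adjusted p = 0.690). Akt2, a kinase downstream of it, differed by -0.49 ± 0.22, the ribosomal protein Rps6 by 0.47 ± 0.29, and Tsc2, a brake on mTOR signalling, by -0.42 ± 0.23 (SE). In the other comparisons the largest differences of the list were Pik3r3, another regulatory subunit, at 0.54 ± 0.29 for fetal alcohol minus isocaloric diet, and Irs2 for isocaloric minus control diet. For isocaloric minus control diet, 15 of the 28 were negative, against 46.3% of the 3174 genes, and Irs2 alone had an unadjusted p under 0.05 on the lower side, against 4.66%.

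In the growth hormone axis, the hormone system that drives Igf1 in liver, 12 of 12 genes were measured and 8 tested. For fetal alcohol against control diet 6 differences were positive, the median was 0.15, and 1 gene, Sstr2, had an unadjusted p under 0.05. Sstr2, a somatostatin receptor, had 303 and 254 in the fetal alcohol pair, 118 with the isocaloric diet, and 174 and 196 in the control diet pair. Fetal alcohol was highest and the isocaloric array lowest, without overlap. The difference was 0.56 ± 0.24 from control diet (SE, limma adjusted p = 0.875) and 1.17 ± 0.29 from the isocaloric diet (limma adjusted p = 0.986), where it was the 1 gene of the list with an unadjusted p under 0.05 on the higher side, against 2.36% of genes. The hormone-releasing peptide Ghrh differed from control diet by -0.35 ± 0.28, the kinase Jak2 by 0.20 ± 0.37, somatostatin (Sst) by 0.18 ± 0.20 and the receptor Ghrhr by 0.17 ± 0.23 (SE).

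**Figure D4:**
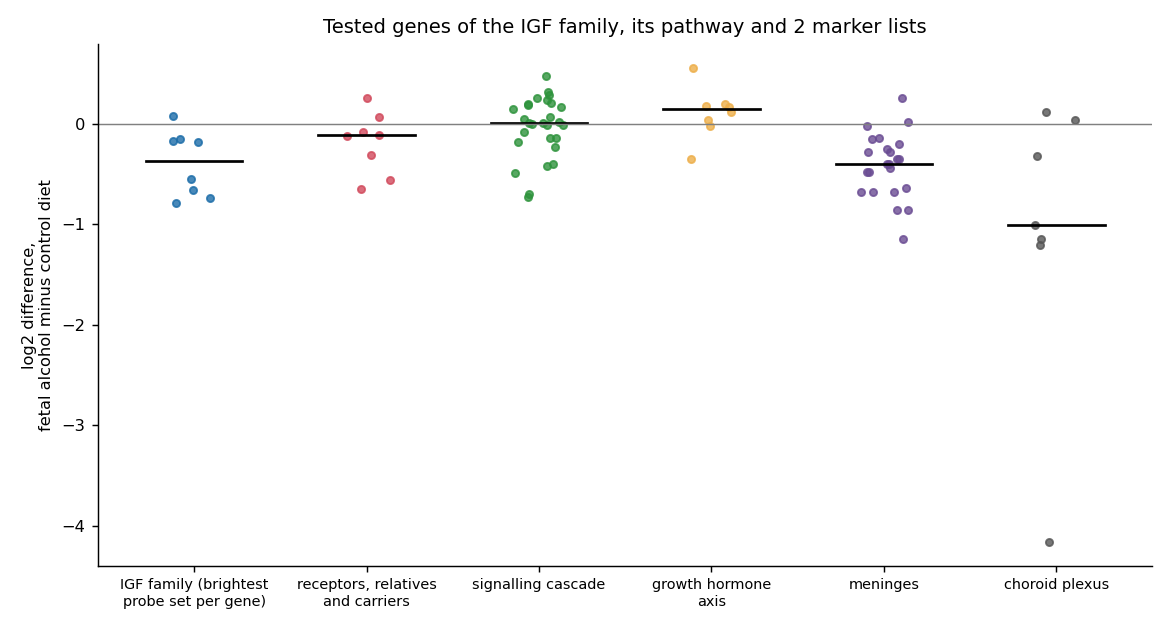
Log2 difference, fetal alcohol minus control diet, of each tested gene of the IGF family (brightest probe set per gene), of the 3 lists around it and of 2 marker lists, with a black line at the median of each. The medians are -0.36 for the family, -0.11 for receptors, relatives and carriers, 0.01 for the signalling cascade, 0.15 for the growth hormone axis, -0.39 for meninges markers and -1.004 for choroid plexus markers.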

How the data were processed

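Intensities of 8799 probe sets on 5 arrays were used as the authors deposited them, 1 linear value per probe set and array; the software and scaling that produced them were not given in the sources used here. Every value column matched a sample. Of these probe sets, 59 were controls and stayed out of the tests. Of the other 8740, 7006 had 1 gene symbol, 308 several and 1426 none in the platform annotation, and current symbols were looked up by gene identifier for 6985. Values became log2(intensity + 10.6). A mean log2 value at or above the 40th percentile was required for testing, and 5244 probe sets met it. One linear model over the 3 groups was fitted by lmFit of limma 3.58.1 under R 4.3.3, moderated by eBayes with a trend on intensity, and tested 2-sided, with Benjamini-Hochberg adjustment over all 5244 and a threshold of 0.05. The spread rests on 2 residual degrees of freedom, and so few arrays limit the precision. The fit was tested on simulated data. The members and gene lists were chosen with earlier results of these data known. Named were all members, up to 5 genes of each pathway list with the largest differences, and up to 3 nearest genes per profile. Up to 3 genes with the largest differences were named for the meninges and choroid plexus lists only. Prlr, Cp, Slc17a7, Kcnj13 and the genes under the offset were named after their values were seen. Replicate numbers were taken as names only. No scan batch was analysed here. Alternatives were other scalings, offsets, filters, no trend, a replicate block and each array left out.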

Additional observations from a re-analysis of the deposited data

How the results depend on the processing

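Probe sets that passed an adjusted p of 0.05 numbered 0 in every comparison as reported. For fetal alcohol against control diet limma called 1 after quantile normalization, 9 after scaling to equal medians, 1 with an offset of 50 and 6 with the replicate block, and between 0 and 22 with each array left out: 17 without fetal alcohol array 1 and 22 without fetal alcohol array 2. For fetal alcohol against isocaloric diet it called 3 after quantile normalization and 3 after scaling to equal medians, and between 0 and 22 with an array left out, 22 without fetal alcohol array 1 and 13 without array 2. For isocaloric against control diet it called between 0 and 14 with an array left out, 14 without fetal alcohol array 1 and 11 without array 2. Leaving out an array leaves its group with 1, assumed to vary like the others.

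Among the members, 1 probe set, Igf2 E00988mRNA_s_at, passed for fetal alcohol against control diet after quantile normalization, after scaling to equal medians, with an offset of 50, with the replicate block and without either fetal alcohol array, so the count with an array left out lay between 0 and 1. Its limma adjusted p lay between 0.000922 and 0.642 over all alternatives, and its difference between -2.77 and -1.58. With the replicate block the difference was -2.50 with an adjusted p of 0.00766; the replicate numbers are only names, and the correlation of the deviations of same-numbered arrays, -0.113 over 5244 probe sets, cannot show a pairing. For isocaloric against control diet the member count lay between 0 and 1 with an array left out, and the same probe set, at -2.14, passed without fetal alcohol array 1 (adjusted p 0.0326) and without array 2 (0.0381).

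Some members changed sign, among them Igfbp5 M62781_at, which was -0.66 for fetal alcohol minus control diet and -0.71 for fetal alcohol minus isocaloric diet as reported. For isocaloric against control diet, Igf1 M15481_g_at became 0.0076 after quantile normalization and 0.017 after scaling to equal medians, and Igfbp3 rc_AI009405_s_at became 0.018 and 0.031. With each array left out, the fetal alcohol minus control diet difference lay between -0.12 and 0.28 at Igf1 X06107_i_at, -0.29 and 0.16 at M15481_g_at, -0.094 and 0.15 at X06107_r_at, -0.44 and 0.092 at Igfbp2 J04486_at, -0.31 and 0.15 at Igfbp3 rc_AI009405_s_at, and -1.37 and 0.059 at Igfbp5 M62781_at. The fetal alcohol minus isocaloric difference lay between -0.26 and 0.19 at M15481_g_at, -0.021 and 0.0048 at Igf2 M17960_g_at, -0.48 and 0.29 at Igfbp2 A09811cds_s_at, -0.93 and 0.030 at Igfbp3 M31837_at, -1.42 and 0.0076 at Igfbp5 M62781_at, and -0.59 and 0.056 at rc_AI029920_s_at. The isocaloric minus control diet difference lay between -0.18 and 0.22 at X06107_i_at, -0.10 and 0.035 at M15481_g_at, -0.53 and 0.0033 at Igf2 X17012mRNA_s_at, -0.19 and 0.75 at Igfbp2 M91595exon_s_at, -0.37 and 0.18 at Igfbp3 M31837_at, -0.25 and 0.20 at rc_AI009405_s_at, -0.092 and 0.20 at Igfbp5 M62781_at, -0.15 and 0.031 at rc_AI029920_s_at, and -0.83 and 0.41 at Igfbp6 M69055_at. The cause of these moves was not tested. The other members kept their sign and their side of the threshold under the alternatives run, and low signal over background limits the 6 untested probe sets.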

Other observations

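Tested probe sets of other genes whose centred log2 profile over the 5 arrays lay nearest to the brightest probe set of each member were listed among 4379 candidates, as a description without a test. The nearest to Igfbp2 was Cebpd, a stress-responsive transcription factor, at a root mean square distance of 0.019, with 39.1 and 23.8 with fetal alcohol, 52.6 with the isocaloric diet, and 30.2 and 45.4 with control diet, followed by Zfp36, a protein that destabilises mRNAs, at 0.049 and Bckdha, an enzyme of branched-chain amino acid breakdown, at 0.071. Nearest to Igfbp5 were Marcks, an actin-regulating substrate of protein kinase C, at 0.107, Pigf at 0.112 and Ptpro at 0.113. Marcks had 486 and 1169 in the fetal alcohol pair, 1281 with the isocaloric diet, and 1137 and 1043 in the control diet pair, so fetal alcohol array 1 alone was low there too.

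Nearest to Igf2r were Mapkapk3 at 0.044, Skic2 at 0.057 and Ndufa6 at 0.057, and nearest to Igf1r L29232_at were Ces1c at 0.035, Nxph3 at 0.049 and Psat1, an enzyme of serine synthesis, at 0.052. Psat1 had 229 and 233 with fetal alcohol, 149 with the isocaloric diet, and 222 and 255 with control diet, with the isocaloric array alone low. Igf1 lay nearest to Mamdc4 at 0.031, Igfbp3 to Dlg4 at 0.100 and Igfbp6 to Hnrnpa1 at 0.195. The log2 ranges of Igf1, Igfbp3 and Igfbp6 were 0.41, 1.30 and 1.86.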
